A study of Mus musculus with 9 samples.

Results

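The genes described here encode the nuclear pore complex and the transport receptors that carry cargo through it. They were taken from the count table by their symbols: nucleoporins named Nup with a number, importins alpha and beta (Kpna, Kpnb), numbered importins (Ipo), exportins (Xpo) and transportins (Tnpo), without pseudogene symbols. This gave 44 of 24756 rows, of which 41 had enough counts to be tested. The other members were Kpna7, Nup210l and Nup62cl, with 0 to 3 counts in any library, and Nup62cl had 0 in all. The cells were a mouse acute myeloid leukaemia line made from fetal liver cells that carry a pair of retroviral vectors, one with luciferase and MLL-AF9 expressed at all times and one with DsRED and FLT3-ITD under a doxycycline-inducible promoter. MLL-AF9 is a leukaemogenic fusion protein and FLT3-ITD is a mutant cytokine receptor that is active in the absence of ligand. All 9 libraries therefore came from cells with MLL-AF9, and the groups differ in the time without doxycycline. There were 3 libraries from cells kept in 1 µg/mL doxycycline (ON), 3 from cells 24 h after the drug was washed out (OFF24) and 3 from cells 48 h after it (OFF48). A vector integrates differently in each transduced cell, and the labels name 1 line without saying whether it is clonal. They also do not say that replicate libraries were grown apart, and p-values then cover only the spread between these libraries, part of which could be technical.

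The nuclear pore complex is a ring-shaped channel in the nuclear envelope, with inner and outer scaffold rings, a membrane anchor, filaments on the cytoplasmic side and a basket on the nuclear side. Its central channel is lined by proteins rich in phenylalanine-glycine (FG) repeats, which keep large molecules out unless a transport receptor carries them. Importins pick up cargo in the cytoplasm and release it when they bind Ran in its GTP form in the nucleus, while exportins bind cargo together with Ran-GTP and release it when the GTP is hydrolysed outside. Rapidly dividing cells assemble new pores and import newly made histones and ribosomal proteins, and the exportin Xpo1 and fusions of NUP98 are known in human myeloid leukaemia as a drug target and as oncogenes.

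RNA was read at the 3' ends of polyadenylated transcripts. Library totals ran from 1329296 counts (OFF48 replicate 2) to 4038456 (ON replicate 2). The mouse Flt3 row had 2 to 10 counts in each library. A transcript from the vector ends in vector sequence, so this row checks neither the transgene nor its loss. Levels are TMM-scaled CPM, read counts relative to library size, log2 fold changes carry a standard error (SE), and a gene is called higher or lower where the edgeR quasi-likelihood p, adjusted over all 10215 tested genes, is below 0.05. Markers of other fetal liver cells were low or absent in part. Of the lymphoid markers 2 of 11 were at 0 in all libraries, of the erythroid 4 of 10 (among them Hbb-bs and Epor), of the megakaryocyte and mast cell markers 4 of 11 (among them Cpa3) and of the hepatocyte and stroma markers 3 of 10 (among them Alb and Cdh5). The lymphoid markers together reached at most 3.33 CPM in a library. Those of megakaryocytes and mast cells summed to 17.2 to 21.4 CPM in ON, 27.5 to 33.2 in OFF24 and 11.97 to 25.5 in OFF48, and among them Mcpt8, a basophil protease, rose (log2 1.55 ± 0.25 at 24 h and 0.82 ± 0.28 at 48 h), while Gata2, a transcription factor also found in stem and progenitor cells, fell at 48 h (-1.76 ± 0.40). Hepatocyte and stroma markers summed to 26.8 to 36.1 CPM in ON, 46.7 to 60.1 in OFF24 and 55.2 to 64.7 in OFF48, most of it Pecam1, an adhesion molecule that leukocytes also carry, which rose (0.75 ± 0.15 and 0.97 ± 0.16). Erythroid markers summed to 87.5 to 92.4 CPM, 79.5 to 97.5 and 110.01 to 125.1, most of it Tfrc, the transferrin receptor of all dividing cells, which rose at 48 h (0.40 ± 0.11). The part of these cells in the results below was not tested.

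Nuclear transport genes were lower at both times without doxycycline. In ON, the 44 members together held 0.307 to 0.315% of all counts in a library. That share was 0.215 to 0.225% in OFF24 and 0.208 to 0.232% in OFF48, so the ON libraries lay above all others. In summed CPM the members stood at 3074 to 3140 in ON, 2158 to 2271 in OFF24 and 2055 to 2306 in OFF48. Between ON and OFF24, 23 of the 41 tested members fell and 0 rose, where 17.4% of all tested genes fell and 17.8% rose (edgeR). Of the tested members 38 had a negative log2 fold change, with a median of -0.44 against 0.03 over all tested genes. Changes were mostly below 2-fold: 3 members fell at least 2-fold, Nup93, Nup160 and Ipo4, where 4.33% of tested genes did. Between ON and OFF48, 25 members fell and 0 rose, where 23.9% of all tested genes fell and 23.4% rose. The median was -0.53 against 0.01 over all tested genes, 37 members were negative, and Nup43 alone fell at least 2-fold, where 8.82% of tested genes did. All 23 members lower in OFF24 were also lower in OFF48, where they made up 92.0% of the calls, and Nup50 and Kpna6 were added. Both comparisons use the same ON libraries, so they do not support each other independently.

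**Figure D1:**
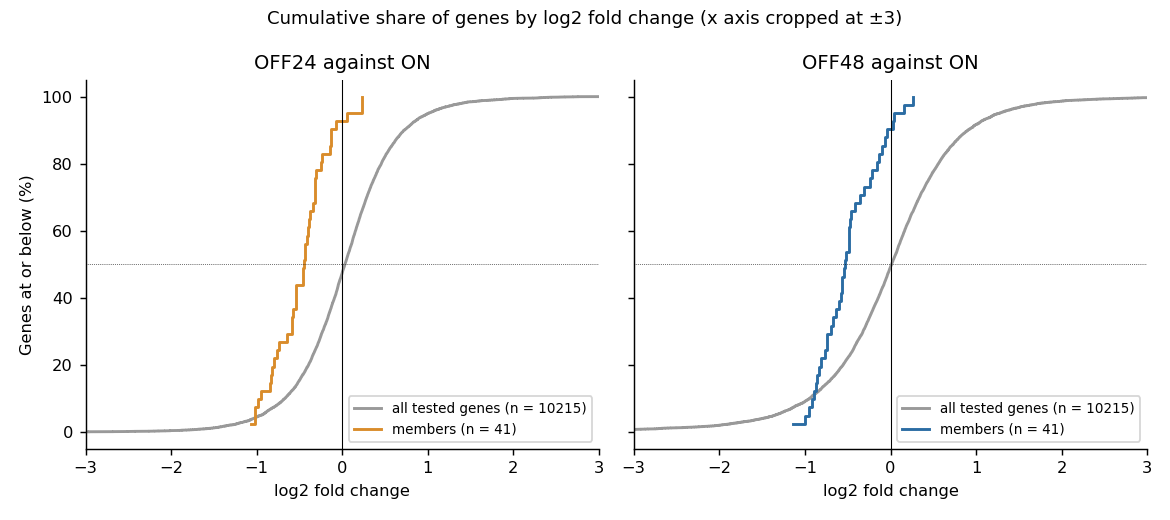
Cumulative share of genes (y axis, percent) at or below each log2 fold change from ON (x axis, cropped at ±3) for the 41 tested members (coloured steps) and all 10215 tested genes (grey), at 24 h (left) and 48 h (right). The member curves lie to the left of the grey curves over most of their height, with medians of -0.44 and -0.53 against 0.03 and 0.01, and they stop near 0.23 and 0.27 on the right.

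In a bulk sample, fewer cells of a kind and less RNA per cell cannot be told apart. While the transport genes were lower at both times, the 13 myeloid genes listed as markers of the line itself were higher in sum. Their summed level was 2826 to 3109 CPM in ON, 5227 to 5609 in OFF24 and 7221 to 7953 in OFF48. Of the 12 tested, 10 rose at each time, where 17.8% of all tested genes rose at 24 h and 23.4% at 48 h. Between OFF24 and OFF48, 6 rose and 1 fell, where 9.99% of all tested genes rose and 11.2% fell. Prtn3 had the highest mean level of the 13, so the sum does not describe every gene of the list. The part of these myeloid genes in the result was not tested.

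The groups of libraries were also compared without a model. For 26 members every OFF24 library lay below every ON library, where 23.9% of all tested genes did so, and for 1 member (Nup107) every OFF24 library lay above, where 25.1% did. At 48 h, 24 members lay below, where 27.0% of tested genes did, and 0 above, where 25.5% did. Summed by place in the pore, the libraries of the groups separated in 7 of 9 classes. The inner ring stood at 57.5% of its ON mean in OFF24 and 65.9% in OFF48, and the FG proteins of the channel at 54.1% and 66.1%. The basket stood at 71.3% and 69.9%, and the membrane ring at 68.9% and 57.6%. Among receptors, importin alpha adaptors stood at 68.3% and 74.3%, importin beta and the other import receptors at 80.1% and 69.0%, and export and bidirectional receptors at 68.5% and 67.1%. The cytoplasmic face (68.9% and 75.3%) overlapped with ON in OFF48, and the outer ring (94.6% and 83.8%) overlapped with ON at both times. Most of the outer ring's summed level came from Nup107, which was not called. Other sums also rested largely on single genes. In ON, Nup62 held 279 of the 304 CPM of the FG proteins and Nup93 198 of the 357 CPM of the inner ring. Nup210 held 38.4 of the 38.9 CPM of the membrane ring. A lower sum is therefore not a fall of every member of the class.

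**Figure D2:**
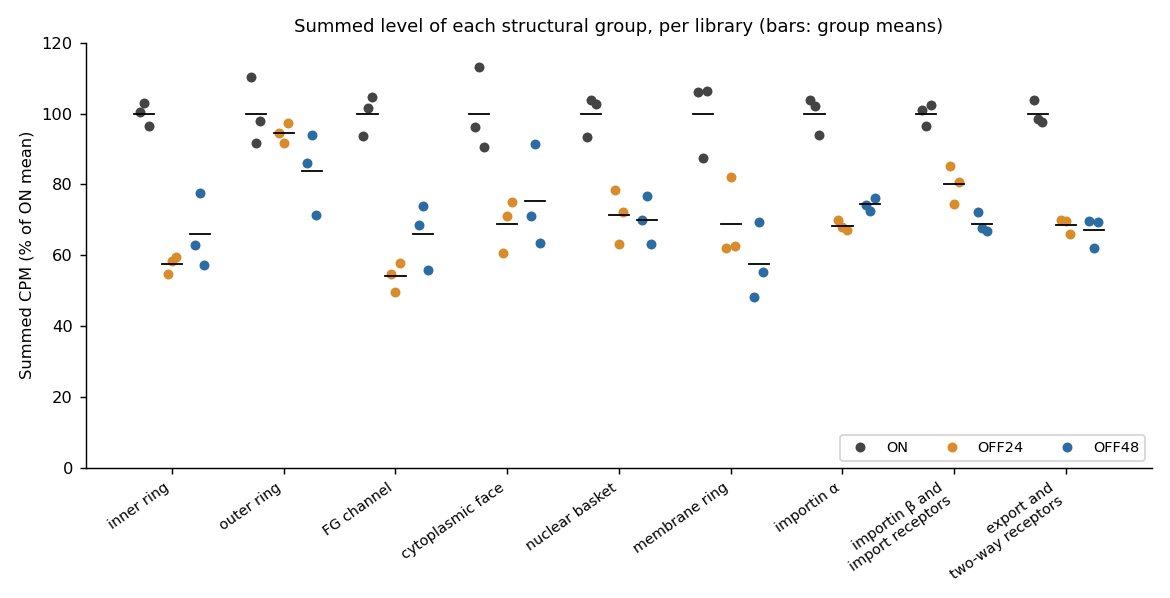
Summed CPM of the members of each structural class as a percentage of the ON mean (y axis), 1 point per library and a bar at the mean of each group of 3. Points of OFF24 and OFF48 lie below those of ON in every class except the outer ring at both times and the cytoplasmic face at 48 h, where 1 OFF48 library reached 91.4%.

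Because many members moved together, their promoters were searched for short motifs. RefSeq promoters on GRCm38.p6, from 250 bases before to 50 bases after the transcription start, were matched by symbol for 35 of the 44 members. The E-box CACGTG, the site of basic helix-loop-helix factors such as MYC and USF, reads the same on both strands. It was found in 7 of the 35 (20.0%), against 12.4% of the 8018 tested genes with a matched promoter and 8.1% of the 27025 genes counted. Shares of tested genes below are also of these 8018. Of the members with a promoter, 20 were called lower at either time, and 6 of them held the E-box (30.0%). Of the 13 tested members with a promoter and called at neither, 1 held it (7.7%), Nup54. These are descriptions of small numbers, with no test, and the E-box share among all genes called lower was not counted. Other motifs were counted on both strands. The core of the cyclic AMP response element, TGACG, stood in 6 of the 20 lower members (30.0%), in 8 of the 13 others (61.5%) and in 37.4% of tested genes. CCAAT stood in 55.0% and 53.8% against 43.9%, the ETS site CCGGAAG in 15% and 23.1% against 23.1%, the NRF1 core GCATGCG in 10.0% and 15.4% against 8.1%, and the GC box GGGCGG in 75.0% and 69.2% against 70.1%. A gene counts once if any of its promoters holds the motif. The promoters of the 6 lower members with an E-box are printed because they show where it stands, with the E-box in capitals and the strand of the gene.
Nup93, chr8:94214314-94214613, plus strand: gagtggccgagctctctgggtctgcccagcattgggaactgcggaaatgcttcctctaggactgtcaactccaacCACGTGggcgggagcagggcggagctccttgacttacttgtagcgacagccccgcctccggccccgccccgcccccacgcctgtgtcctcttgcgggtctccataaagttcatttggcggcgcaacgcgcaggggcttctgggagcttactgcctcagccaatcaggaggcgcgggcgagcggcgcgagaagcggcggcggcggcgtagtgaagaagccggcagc
Nup188, chr2:30286166-30286465, plus strand: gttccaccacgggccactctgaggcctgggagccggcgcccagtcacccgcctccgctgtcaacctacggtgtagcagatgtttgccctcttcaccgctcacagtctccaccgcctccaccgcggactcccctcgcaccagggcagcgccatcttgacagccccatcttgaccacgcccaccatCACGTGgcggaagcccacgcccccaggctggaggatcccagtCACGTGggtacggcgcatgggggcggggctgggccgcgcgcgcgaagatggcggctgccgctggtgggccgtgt
Ipo4, chr14:55635635-55635934, minus strand: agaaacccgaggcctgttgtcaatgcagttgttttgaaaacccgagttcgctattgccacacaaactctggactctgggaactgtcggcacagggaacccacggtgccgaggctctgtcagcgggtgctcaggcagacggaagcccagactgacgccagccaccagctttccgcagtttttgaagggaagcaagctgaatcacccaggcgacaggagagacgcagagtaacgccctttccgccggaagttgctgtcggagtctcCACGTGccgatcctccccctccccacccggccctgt
Ipo7, chr7:110018065-110018364, plus strand: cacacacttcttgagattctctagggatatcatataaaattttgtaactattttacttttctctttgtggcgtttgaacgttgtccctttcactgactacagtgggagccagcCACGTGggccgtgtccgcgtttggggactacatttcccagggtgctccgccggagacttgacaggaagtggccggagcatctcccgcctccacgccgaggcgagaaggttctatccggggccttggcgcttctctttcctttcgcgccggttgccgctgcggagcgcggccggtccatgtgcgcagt
Tnpo2, chr8:85036643-85036942, plus strand: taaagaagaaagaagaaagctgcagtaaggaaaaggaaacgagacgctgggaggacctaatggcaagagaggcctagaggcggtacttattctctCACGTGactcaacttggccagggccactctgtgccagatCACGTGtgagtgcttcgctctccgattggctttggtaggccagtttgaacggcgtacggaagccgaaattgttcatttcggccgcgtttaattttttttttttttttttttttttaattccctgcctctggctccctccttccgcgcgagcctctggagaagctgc
Xpot, chr10:121626283-121626582, minus strand: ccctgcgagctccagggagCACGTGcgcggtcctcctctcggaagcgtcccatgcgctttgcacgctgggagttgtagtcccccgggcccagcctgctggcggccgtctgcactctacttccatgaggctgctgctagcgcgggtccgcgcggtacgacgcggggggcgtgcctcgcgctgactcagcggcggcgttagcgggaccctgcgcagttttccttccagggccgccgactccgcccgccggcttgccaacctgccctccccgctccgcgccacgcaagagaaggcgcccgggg
The first base of the E-box lay 175 bases before the start in Nup93, 137 in Ipo7 and 231 in Xpot. Nup188 has E-boxes 66 and 24 bases before its start, and Tnpo2 has them 155 and 116 bases before. In Ipo4 it lies 14 bases after the start. Nup93 and Tnpo2 each have a second listed promoter without an E-box.

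Counts of members called in each class, here and below, are to be read against all tested genes, of which 17.4% fell at 24 h and 23.9% at 48 h. The inner ring holds the channel proteins in place, and 4 of its 5 members fell at each time. Nup93 (chromosome 8, 94214564 to 94317227, plus strand; GENCODE M21 on GRCm38, also called mm10, here and below) is the scaffold that anchors the channel proteins. Its level was 198, 210.3 and 185 CPM in the ON libraries, 83.3, 97.0 and 102 in OFF24 and 114, 160.1 and 84.5 in OFF48. All ON libraries were above all others, and OFF48 replicate 2 was the highest without doxycycline. The log2 fold change was -1.07 ± 0.16 (SE) at 24 h (edgeR adjusted p = 0.000122) and -0.77 ± 0.16 at 48 h (adjusted p = 0.00112). Nup188, a large scaffold protein of the same ring, changed by -0.74 ± 0.12 and -0.57 ± 0.12, with no overlap between ON and either group. Nup35, which links the ring to the membrane, changed by -0.76 ± 0.23 and -0.70 ± 0.24, and Nup205, the relative of Nup188, by -0.44 ± 0.16 and -0.47 ± 0.17. The call of Nup35 was lost at 24 h without OFF24 replicate 1 or 2 (log2 -0.55 and -0.72) and at 48 h without ON replicate 2, OFF48 replicate 1 or OFF48 replicate 3 (-0.59, -0.70 and -0.69) and with the deposited log2 values (-0.66). That of Nup205 was lost without ON replicate 1 or 3 (-0.39 and -0.42 at 24 h, -0.40 and -0.45 at 48 h), without OFF24 replicate 2 or 3 at 24 h (-0.45 and -0.34), without OFF48 replicate 1 or 2 at 48 h (-0.35 and -0.44), and with DESeq2 (-0.45 and -0.48). At 24 h it was also lost with upper quartile scaling (-0.40) and with the deposited log2 values (-0.43). Nup155, the member not called, had log2 values of -0.13 ± 0.14 and -0.16 ± 0.14.

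The outer ring is built from Y-shaped complexes, and 3 of its 6 members fell at each time. Nup160 (chromosome 2, 90677215 to 90736328, plus strand), in an arm of the Y, stood at 17.05, 19.4 and 11.1 CPM in ON, 7.499, 9.39 and 6.83 in OFF24 and 7.36, 10.5 and 7.55 in OFF48. ON replicate 3 was the lowest of its group and still above every library without doxycycline. Its log2 fold change was -1.02 ± 0.24 at 24 h (edgeR adjusted p = 0.00272) and -0.997 ± 0.25 at 48 h (adjusted p = 0.00273). Nup43 (chromosome 10, 7667503 to 7678881, plus strand), a peripheral subunit, stood at 16.8, 14.95 and 11.8 CPM in ON, 10.4, 6.57 and 8.31 in OFF24 and 7.02, 8.23 and 5.52 in OFF48. The groups did not overlap with ON, and the log2 fold change was -0.82 ± 0.23 (adjusted p = 0.00937) and -1.14 ± 0.25 (adjusted p = 0.000893, edgeR). The 3' end of Nup43 overlaps that of Pcmt1 on the other strand, whose counts were 1100% of those of Nup43 and whose log2 fold changes were -0.24 and -0.22, not called. The strand setting of the counting is not given in the sources used here, so reads of the pair cannot be told apart. Nup37, another peripheral subunit, changed by -0.54 ± 0.18 and -0.55 ± 0.19, calls lost with DESeq2 (-0.55 and -0.56) and without ON replicate 1 (-0.37 and -0.36). They were also lost without OFF24 replicate 1 or 3 at 24 h (-0.50 and -0.54) and without OFF48 replicate 2 or 3 at 48 h (-0.47 and -0.45), and that of Nup43 at 24 h without OFF24 replicate 2 (-0.68).

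The other members of the outer ring were not called. Nup107, a core subunit of the stem, stood at 165, 155 and 167 CPM in ON, 187, 177 and 205 in OFF24 and 157, 186 and 129 in OFF48. All OFF24 libraries were above ON, and OFF48 overlapped with ON. Its log2 value was 0.23 ± 0.12 at 24 h (edgeR adjusted p = 0.144) and -0.06 ± 0.12 at 48 h (adjusted p = 0.694). Nup133 (-0.41 and -0.48) and Nup85 (-0.35 and -0.36) had negative log2 values with edgeR adjusted p of at most 0.119. Nup85 was called at both times without ON replicate 2 (-0.54 and -0.53) and with no filter on low counts (-0.38 and -0.38). With a replicate block it was also called at both times (-0.32 and -0.37), and without OFF48 replicate 1 at 48 h (-0.49). Nup133 was called at 48 h without ON replicate 2, ON replicate 3 or OFF48 replicate 2 (-0.57, -0.59 and -0.59) and with no filter (-0.51).

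Of the FG proteins of the channel, Nup62 was called. Nup62 (chromosome 7, 44816088 to 44830812, plus strand) forms the central FG complex, and its level was 259.5, 282 and 296 CPM in ON, 148, 132 and 152 in OFF24 and 188, 207 and 147 in OFF48. No library without doxycycline reached the ON range. The log2 fold change was -0.95 ± 0.12 at 24 h (edgeR adjusted p = 5.59e-06) and -0.64 ± 0.12 at 48 h (adjusted p = 0.000197). Il4i1, which overlaps its 3' end, had 0 to 5 counts in any library. Nup98 (chromosome 7, 102119398 to 102210176, minus strand), the FG protein whose human counterpart is fused in some leukaemias, was low, at 5.60, 8.09 and 11.1 CPM in ON, 6.25, 5.94 and 9.50 in OFF24 and 8.36, 8.23 and 9.87 in OFF48. The 3 groups overlapped, and the log2 values were -0.13 ± 0.28 and 0.16 ± 0.28 (edgeR adjusted p = 0.748 and 0.676). Changes of this size in Nup98 were not detectable at this depth. Nup54, a partner of Nup62, was not called either, at -0.38 ± 0.21 and -0.48 ± 0.22, except without ON replicate 3 (-0.57 and -0.66).

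On the cytoplasmic face, Nup88 changed by -0.59 ± 0.16 at 24 h and -0.57 ± 0.16 at 48 h (edgeR adjusted p = 0.0079 and 0.00743). The OFF48 range of Nup88 overlapped with ON, with OFF48 replicate 2 at 149.7 CPM and ON replicate 3 at 147.0. Rabep1, which overlaps its 3' end, had 11.87% as many counts and was itself lower at 24 h (log2 -0.64, edgeR adjusted p = 0.0182) and not called at 48 h (-0.43), so part of the counts of Nup88 is uncertain. Its partner Nup214, which binds Xpo1, had -0.32 ± 0.14 and 0.04 ± 0.14 and was not called, except at 24 h without OFF24 replicate 2 (-0.47). In the basket Nup153, which docks importin complexes, stood at 95.9 ± 9.12 CPM (mean ± SD, n = 3) with doxycycline, 53.6 ± 6.21 at 24 h and 64.8 ± 5.42 at 48 h. Its log2 fold changes were -0.84 ± 0.12 and -0.58 ± 0.12 (edgeR adjusted p = 3.13e-05 and 0.000652). Nup50, which binds importin alpha at the basket, was called at 48 h (-0.49 ± 0.12) and not at 24 h (-0.25 ± 0.12, though -0.38 and called without OFF24 replicate 1), and between OFF24 and OFF48 its difference was not called (-0.24 ± 0.13). In the membrane ring, Nup210 changed by -0.54 ± 0.16 and -0.83 ± 0.17, the first call being lost without OFF24 replicate 3 (-0.49).

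**Figure D3:**
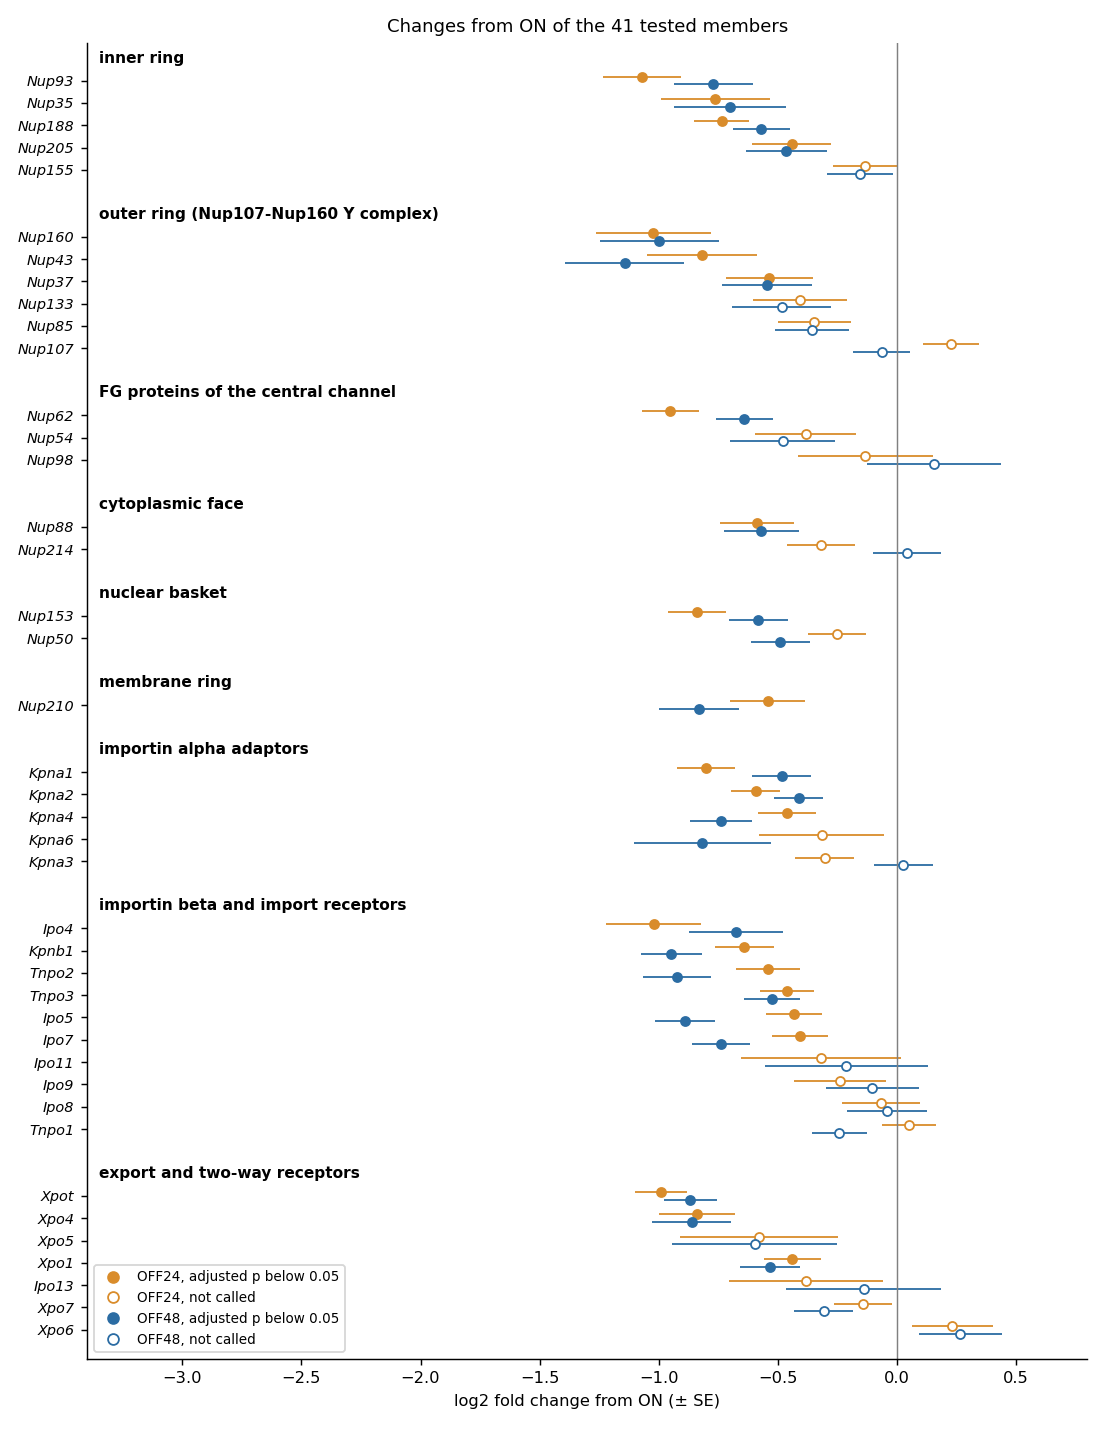
Log2 fold change from ON of each of the 41 tested members (x axis, bars are the SE), at 24 h (orange) and 48 h (blue), grouped by role. Filled points have an edgeR adjusted p below 0.05: 23 at 24 h and 25 at 48 h, all left of 0. Open points such as Nup98, Tnpo1 and Xpo6 lie nearer 0, while others such as Xpo5 (-0.58 and -0.60) lie as far left as some filled ones.

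Importin alpha proteins are the adaptors that recognise the classical nuclear localisation signal. Of the 5 tested, 3 fell at 24 h and 4 at 48 h. Kpna2 (chromosome 11, 106988629 to 106999541, minus strand) stood at 273, 266 and 226 CPM in ON, 170.4, 178 and 159.7 in OFF24 and 184, 195 and 196 in OFF48. ON was above both other groups, and every OFF48 library was above every OFF24 library. The log2 fold change from ON was -0.59 ± 0.10 (edgeR adjusted p = 0.000182) and -0.41 ± 0.10 (adjusted p = 0.00258), and the difference of 0.18 ± 0.10 between OFF48 and OFF24 was not called. Its 3' end matches those of 9 other annotated genes (at least 95% identity), which have no row in the count table, and how reads were divided among them is unknown. Kpna1 changed by -0.80 ± 0.12 and -0.48 ± 0.12 and Kpna4 by -0.46 ± 0.12 and -0.74 ± 0.13. Kpna6 fell at 48 h (-0.82 ± 0.29, edgeR adjusted p = 0.0267), though its OFF48 libraries overlapped with ON. That call was lost without ON replicate 1, ON replicate 3, OFF48 replicate 2 or OFF48 replicate 3 in turn (-0.68, -0.71, -0.68 and -0.55).

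Kpna3 was called at neither time in the main analysis (-0.30 ± 0.12 and 0.03 ± 0.12). At 24 h it was called with a replicate block (-0.31) and without OFF48 replicate 2 (-0.32), a library that also shapes the shared spread. The Kpna3 share of all importin alpha counts was 10.1 to 11.6% in ON, 12.6 to 13.9% in OFF24 and 14.5 to 15.6% in OFF48. That of Kpna4 was 12.9 to 13.1%, 12.8 to 14.5% and 9.56 to 10.9%. The share of Kpna2 stayed within 53.7 to 60.8% in all 9 libraries, with groups that overlapped. Within the family the counts thus leaned to Kpna3 and away from Kpna4 at 48 h, by a few percentage points, and a single library's exact Clopper-Pearson interval was about as wide (13.6 to 17.9% for Kpna3 in OFF48 replicate 3, 95%, counting error only).

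Importin beta and its relatives carry cargo through the channel, and 6 of the 10 members fell at each time. Kpnb1 (chromosome 11, 97159714 to 97187881, minus strand), importin beta itself, stood at 98.5, 95.6 and 107 CPM in ON, 67.5, 54.8 and 70.3 in OFF24 and 55.9, 43.4 and 53.4 in OFF48. ON did not overlap with either group, while OFF24 and OFF48 overlapped with each other. The log2 fold change was -0.64 ± 0.12 at 24 h (edgeR adjusted p = 0.000486) and -0.95 ± 0.13 at 48 h (adjusted p = 5.98e-06). Ipo4 (chromosome 14, 55625400 to 55635957, minus strand), an importer of histones and ribosomal proteins, stood at 21.9, 22.1 and 21.8 CPM in ON, 8.33, 12.8 and 10.7 in OFF24 and 12.4, 10.5 and 16.5 in OFF48. All ON libraries were above the rest, and the log2 fold change was -1.02 ± 0.20 (adjusted p = 0.000579, edgeR) and -0.67 ± 0.20 (adjusted p = 0.00846). Its 3' end matches that of the gene model Gm49378, which has no row in the count table.

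Ipo5 (chromosome 14, 120911224 to 120947999, plus strand), which imports ribosomal proteins and histones, was the member called between the times without doxycycline. Its level was 83.7, 70.1 and 71.7 CPM in ON, 57.9, 50.4 and 59.1 in OFF24 and 38.5, 43.4 and 40.9 in OFF48, 3 ranges that did not overlap. It changed by -0.43 ± 0.12 from ON to OFF24 (edgeR adjusted p = 0.00832), by -0.89 ± 0.13 from ON to OFF48 (adjusted p = 1.15e-05) and by -0.46 ± 0.13 from OFF24 to OFF48 (adjusted p = 0.0175). The last call was lost with DESeq2 (adjusted p = 0.0531) and without OFF24 replicate 1 (0.0664), OFF24 replicate 3 (0.0998), OFF48 replicate 1 (0.0853) or OFF48 replicate 3 (0.058). Ipo7, a related importer, changed by -0.41 ± 0.12 and -0.74 ± 0.12 from ON.

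The transportins import RNA-binding proteins. Tnpo2 (chromosome 8, 85036915 to 85057583, plus strand) stood at 55.7, 59.3 and 51.0 CPM in ON, 31.2, 39.7 and 42.4 in OFF24 and 29.8, 26.2 and 30.5 in OFF48. All 3 groups were apart, with a log2 fold change of -0.54 ± 0.13 at 24 h (edgeR adjusted p = 0.00401) and -0.92 ± 0.14 at 48 h (adjusted p = 2.85e-05), while the difference between the times was not called (-0.38 ± 0.15, adjusted p = 0.0792), except without OFF24 replicate 1 (-0.47). Tnpo1 (chromosome 13, 98839019 to 98926384, minus strand), its close relative, stood at 224, 180.4 and 232 CPM in ON, 244, 201 and 214 in OFF24 and 189, 179.6 and 169 in OFF48. Both groups overlapped with ON and neither was called in the main analysis (0.05 ± 0.11 and -0.24 ± 0.11, edgeR adjusted p = 0.756 and 0.0901). Tnpo1 was called at 48 h without ON replicate 2 (-0.35) and with a replicate block (-0.25). A shared 3' sequence with Gm6493 makes its level uncertain. Tnpo3, which imports splicing factors with serine-arginine repeats, changed by -0.46 ± 0.11 and -0.52 ± 0.12. The overlapping gene Irf5 had 2.35% as many counts as Tnpo3. The import receptors Ipo8, Ipo9 and Ipo11 had log2 values from -0.32 to -0.04 and were not called at either time.

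Of the 7 export and bidirectional receptors, 3 fell at each time. Xpot (chromosome 10, 121587380 to 121626332, minus strand), the exporter of tRNAs, stood at 170.2, 144 and 162 CPM in ON, 88.7, 72.9 and 78.4 in OFF24 and 89.0, 85.3 and 85.9 in OFF48. Every ON library was above the others, and the log2 fold change was -0.99 ± 0.11 (edgeR adjusted p = 1.41e-06) and -0.87 ± 0.11 (adjusted p = 3.10e-06), the smallest adjusted p of all members at each time. A 3' sequence shared with Gm7389 leaves its exact level uncertain. Xpo4 (chromosome 14, 57577521 to 57665430, minus strand), which exports the translation factor eIF5A, stood at 40.5, 34.6 and 36.0 CPM in ON, 24.998, 18.1 and 19.6 in OFF24 and 18.7, 25.4 and 19.2 in OFF48. ON did not overlap with the others, and the log2 fold change was -0.84 ± 0.16 (adjusted p = 0.000503, edgeR) and -0.86 ± 0.17 (adjusted p = 0.0003). Its 3' end matches that of Gm17873.

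Xpo1 (chromosome 11, 23256041 to 23298249, plus strand), the main exporter of proteins with a leucine-rich export signal, stood at 89.6, 92.9 and 74.6 CPM in ON, 55.8, 70.7 and 62.9 in OFF24 and 59.2, 56.1 and 61.8 in OFF48. The lowest ON library, replicate 3, was above the highest OFF24 library, replicate 2, by a small margin, and OFF48 was lower than all ON libraries. The log2 fold change was -0.44 ± 0.12 at 24 h (edgeR adjusted p = 0.00851) and -0.53 ± 0.12 at 48 h (adjusted p = 0.00165). Xpo5, the exporter of microRNA precursors, had few counts and log2 values of -0.58 ± 0.33 and -0.60 ± 0.35, not called. Xpo7 (-0.14 ± 0.12 and -0.31 ± 0.13) and the bidirectional receptor Ipo13 (-0.38 ± 0.32 and -0.14 ± 0.32) were not called either. For Xpo7 at 48 h the adjusted p was 0.0504 (edgeR). It was called without OFF48 replicate 1 (log2 -0.40), with RLE scaling (-0.31), library totals (-0.31), no filter (-0.33) and a filter of 10 CPM (-0.31). The deposited log2 values (-0.37) and a replicate block (-0.31) also gave a call. Xpo6, the exporter of actin with profilin, had positive values at both times (0.23 ± 0.17 and 0.27 ± 0.17) that were not called, and it was called higher at 48 h without OFF48 replicate 2, the shallowest library (log2 0.40, adjusted p = 0.046, edgeR).

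**Figure D4:**
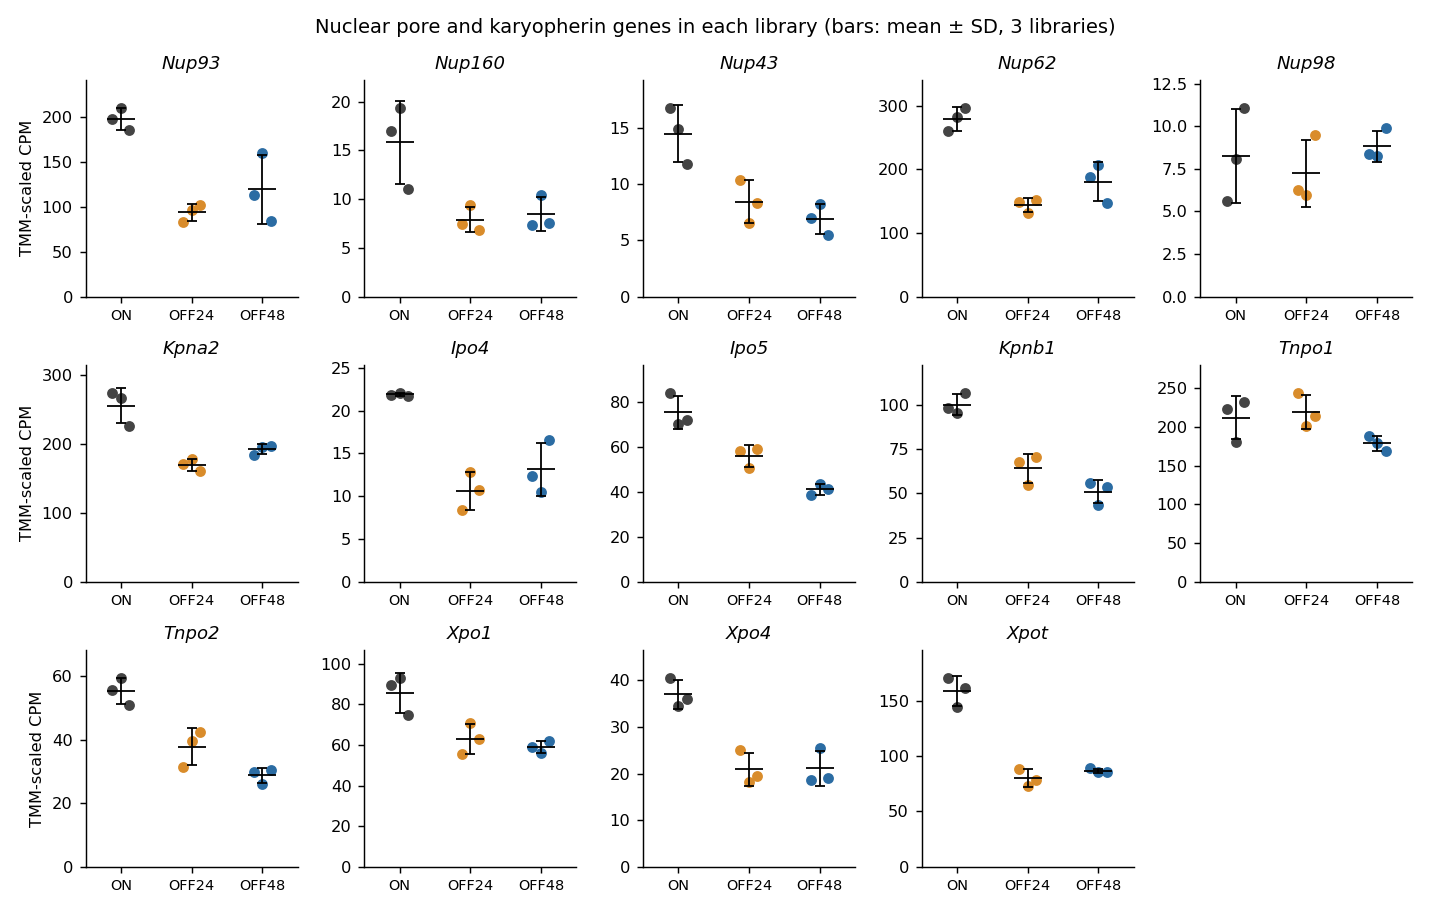
Level of 14 members in TMM-scaled CPM (y axes start at 0), 1 point per library in ON, OFF24 and OFF48, with bars for the mean ± SD of 3 libraries. For all but Nup98 and Tnpo1 the ON points lie above every other point. For Ipo5, Tnpo1 and Tnpo2 the OFF48 points lie below those of OFF24.

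Between OFF24 and OFF48 few transport genes were called, and the number depended on the setting. Of the 41 tested members 1 fell (Ipo5) and 0 rose, where 11.2% of all tested genes fell and 9.99% rose (edgeR). The number lower was 3 with upper quartile scaling, 2 with the deposited log2 values and 0 with DESeq2, and with a replicate block 5 were lower and 1 higher. The median log2 difference was -0.01, against 0.005 over all tested genes, and 0 members fell at least 2-fold, where 3.99% of tested genes did. The libraries were fully apart for 11 members: 6 were above in OFF48 (Kpna1, Kpna2, Kpna3, Nup153, Nup188 and Nup214), where 18.2% of tested genes were, and 5 below (Ipo5, Ipo7, Kpna4, Tnpo1 and Tnpo2), where 19.8% were. Of the members above in OFF48, Kpna3 passed the test without ON replicate 2 (log2 0.35) and Nup214 without OFF24 replicate 2 (0.51). Those below other than Ipo5 did not pass the test in the main analysis. Their log2 differences were -0.33 ± 0.13 for Ipo7, -0.28 ± 0.14 for Kpna4, -0.29 ± 0.12 for Tnpo1 and -0.38 ± 0.15 for Tnpo2. Ipo7 and Tnpo1 passed it with upper quartile scaling (-0.37 and -0.33) and with a replicate block (-0.345 and -0.30). Ipo7 also passed it with the deposited log2 values (-0.39), and Tnpo2 without OFF24 replicate 1 (-0.475).

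The 3' ends of 18 members overlap another annotated gene or match one closely, so part of their counts is uncertain. Of the 24 tested members without either, 11 fell at 24 h and 13 at 48 h, where 17.4% and 23.9% of all tested genes fell.

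Genes of the same machinery whose symbols lie outside the rule were counted from lists, to be read against the 17.4% of all tested genes that fell and 17.8% that rose at 24 h and the 23.9% and 23.4% at 48 h. Of 12 tested pore proteins with other names, 7 fell and 0 rose at each time, with a median log2 fold change of -0.58 and -0.52. Rae1, an mRNA export factor that binds Nup98, stood at 212 ± 16.7 CPM (mean ± SD, n = 3) with doxycycline, 100.2 ± 2.84 at 24 h and 106 ± 18.3 at 48 h (log2 -1.08 ± 0.12 and -1.02 ± 0.12, edgeR adjusted p = 1.24e-06 and 1.11e-06). Ndc1, which anchors the pore in the membrane, changed by -0.62 ± 0.11 and -0.80 ± 0.11, and the outer ring protein Sec13 by -0.54 ± 0.12 and -0.58 ± 0.12. Tpr, the main filament of the basket, had -0.05 ± 0.10 and -0.02 ± 0.10, and Ranbp2, the large cytoplasmic filament protein, had 0.23 ± 0.11 and 0.14 ± 0.12. Neither was called, so within the basket Nup153 fell while Tpr was not called. The 3' end of Tpr overlaps and matches Prg4, so part of the counts of Tpr is uncertain.

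The Ran cycle, which gives transport its direction, had 7 of 8 tested genes lower and 0 higher at each time, where 17.4% and 23.9% of all tested genes were lower, with medians of -0.72 and -0.98. Ran itself (chromosome 5, 129020069 to 129024323, plus strand) stood at 1287, 886 and 1239.8 CPM in ON, 666, 627 and 650.0 in OFF24 and 515, 373 and 556 in OFF48. ON replicate 2 was the lowest of its group and above every library without doxycycline, and OFF24 lay above OFF48. The log2 fold change of Ran was -0.81 ± 0.15 at 24 h (edgeR adjusted p = 0.000465) and -1.23 ± 0.15 at 48 h (adjusted p = 4.46e-06), and the difference between the times was not called (-0.42 ± 0.15, adjusted p = 0.0532). Rcc1, the exchange factor that loads Ran with GTP on chromatin, changed by -1.24 ± 0.14 and -1.27 ± 0.14. Ranbp1, which helps release Ran from receptors, changed by -1.23 ± 0.10 and -1.24 ± 0.10. The member of the list not called was Ranbp2, which also stands among the pore proteins.

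Of 9 tested receptors and adaptors outside the rule, 6 fell and 0 rose at each time, where 17.4% and 23.9% of all tested genes fell, with medians of -0.65 and -0.61. Cse1l, the exportin that returns importin alpha to the cytoplasm, changed by -0.42 ± 0.11 and -0.36 ± 0.11 (edgeR adjusted p = 0.00438 and 0.00935). Rrp12, which takes part in export of ribosomal subunits, changed by -0.92 ± 0.19 and -1.16 ± 0.20, and Nmd3, the adaptor that links the large ribosomal subunit to Xpo1, by -0.81 ± 0.17 and -0.68 ± 0.17. Ncbp1, of the nuclear cap-binding complex, changed by -0.65 ± 0.12 and -0.61 ± 0.13. Its 3' end overlaps Xpa on the other strand, so part of its counts is uncertain.

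**Figure D5:**
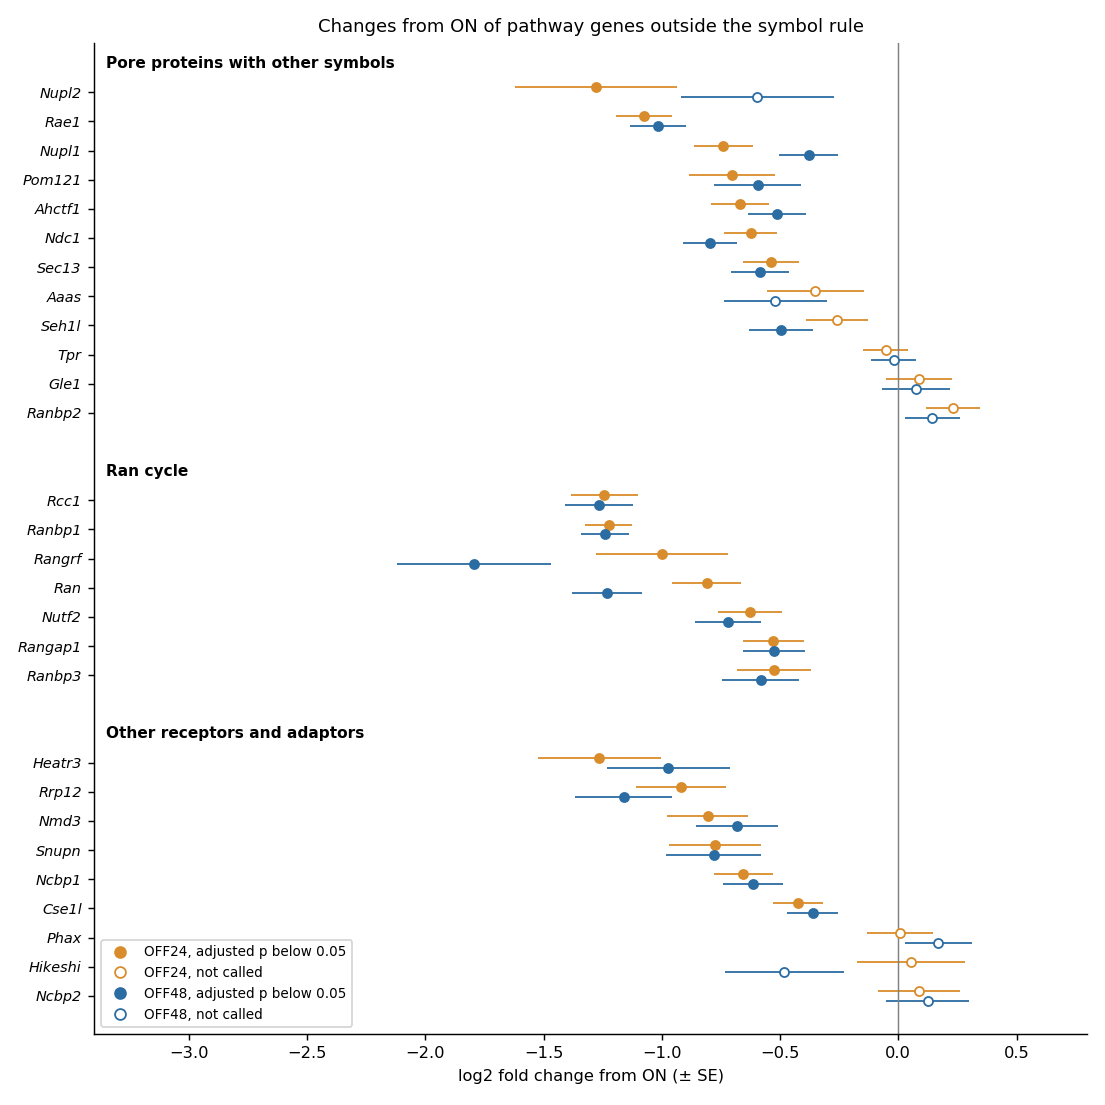
Log2 fold change from ON (x axis, bars are the SE) of tested genes with symbols outside the rule, at 24 h (orange) and 48 h (blue), filled where the edgeR adjusted p is below 0.05. Ranbp2 belongs to the pore and the Ran lists and is drawn once, and filled points all lie left of 0.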

How the data were processed

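The data were 9 libraries of 3' mRNA sequencing (Lexogen QuantSeq, per the labels' protocols) from TriZol and column-purified, DNase-treated RNA. The build mm10 is named in the submitters' processing notes. These also list HISAT2 2.0.4, cutadapt 1.5, featureCounts with Subread 1.5.0-p3, and limma 3.42.2 in R 3.6.1, with no roles. Annotation, strand setting and handling of multiply mapping reads: not given in the sources used here. In the deposited files, the count table holds raw whole-number counts per gene symbol, 1 column a library. A second deposited table holds log2 values normalised with voom and limma, per its name, and served as an alternative only.

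Counts were filtered with edgeR 4.0.16 filterByExpr (10215 genes left), scaled by TMM and fitted to all 9 libraries by robust quasi-likelihood with group means (6 residual degrees of freedom, R 4.3.3). P-values were adjusted by Benjamini-Hochberg over all tested genes at 0.05. The scripts were tested on simulated data. Totals of 1329296 to 4038456 counts make a floor of 3 counts worth 0.74 to 2.26 CPM, for counting error only, since PCR copies are not independent molecules. Chi-square values of 1.99 to 6.99 per degree of freedom put replicates beyond counting noise, so each library was counted once. Groups and replicate numbers came from the sample titles. Promoters came from RefSeq (GRCm38.p6), positions from GENCODE M21, and the last 400 bases of transcripts were compared with blastn 2.17.0 (at least 95% identity over 100 bases).

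Members and lists were chosen with earlier results of these data known. Values in every library are given for the 6 called members with the largest absolute log2 fold change at 24 h and at 48 h, those called between the times, and Xpo1, Kpnb1, Kpna2, Nup98, Nup62, Nup93 and Tnpo1. From the lists, Ran, Rcc1, Ranbp1, Cse1l, Tpr and Ranbp2 and up to 3 genes with the smallest p at 48 h are named. Nup107 and Kpna3 were given more values after their results were seen. Alternatives were other scalings (RLE, upper quartile, library totals), no filter and a filter of 10 CPM in 3 libraries, DESeq2 1.42.0, limma-voom (limma 3.58.1), the deposited log2 values, a replicate block, a fit to the groups compared and leaving out each library.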

Additional observations from a re-analysis of the deposited data

Results flagged for a closer look

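Ipo5 was the member whose change from ON differed between 24 h and 48 h by the test of the difference itself. From OFF24 to OFF48 its log2 fold change was -0.46 ± 0.13 (SE, edgeR adjusted p = 0.0175), and the 3 libraries of OFF48 lay below the 3 of OFF24. The call was lost with DESeq2 and without any of 4 libraries in turn (OFF24 replicates 1 and 3, OFF48 replicates 1 and 3; log2 -0.41, -0.39, -0.40 and -0.45). The other 40 tested members did not pass this test.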

How the results depend on the processing

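The members called lower numbered 20 to 25 at 24 h and 22 to 28 at 48 h over all alternatives, against 23 and 25. Of these calls 18 of 23 and 21 of 25 held in every alternative run. Those lost in some were Nup205, Nup210, Nup35, Nup37 and Nup43 at 24 h and Kpna6, Nup205, Nup35 and Nup37 at 48 h. No member was called higher at 24 h in any alternative, and at 48 h the number was 0 to 1 when single libraries were left out, the 1 being Xpo6 without OFF48 replicate 2.

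Between OFF24 and OFF48 the number called lower, 1 in the main analysis, was 3 with upper quartile scaling, 0 with DESeq2, 2 with the deposited log2 values and 0 to 2 when single libraries were left out. The number called higher was 1 with no filter on low counts and 0 to 2 without single libraries. Libraries with the same replicate number were not paired by the labels, and their deviations correlated at -0.01 to 0.41. With a replicate block 25 members were lower at 24 h and 28 at 48 h, and between the times 5 were lower and 1 higher.

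Values that changed sign were all uncalled. Without single libraries, log2 values at 24 h ran from -0.077 to 0.114 for Tnpo1, -0.416 to 0.091 for Nup98 and -0.22 to 0.036 for Ipo8. At 48 h they ran from -0.025 to 0.086 for Kpna3, -0.535 to 0.074 for Ipo11, -0.133 to 0.039 for Ipo8, -0.066 to 0.38 for Nup98, -0.03 to 0.102 for Nup214, -0.044 to 0.021 for Tpr, -0.247 to 0.088 for Ipo9 and -0.185 to 0.071 for Nup107. Kpna3 stood at -0.003 at 48 h with the deposited values. The cause was not tested. No scaling moved the median of all tested genes by more than 0.1. Members with few counts, such as Nup98 and Xpo5, are limited by depth.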

Other observations

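Counts of other gene groups stand beside the shares of all tested genes, of which 17.4% fell and 17.8% rose at 24 h, 23.9% fell and 23.4% rose at 48 h, and 11.2% fell and 9.99% rose between the times. Of 17 tested lamina and envelope linker genes, 5 fell and 3 rose at 24 h, 3 fell and 4 rose at 48 h, and 4 fell and 6 rose between the times. From ON, the numbers that rose at 24 h and that fell or rose at 48 h are near the shares of all genes. Syne1, which ties the nucleus to the cytoskeleton, rose, with levels of 24.3 ± 1.55 CPM (mean ± SD, n = 3) with doxycycline, 41.5 ± 5.51 at 24 h and 117 ± 14.6 at 48 h (log2 0.78 ± 0.15 and 2.26 ± 0.14, SE, edgeR adjusted p = 0.00046 and 2.02e-10). Sun2, its partner in the inner membrane, rose by 0.98 ± 0.12 and 1.68 ± 0.12, while Syne3, a relative of Syne1, changed by -1.30 ± 0.18 and -1.95 ± 0.20. The 3' end of Syne1 matches sequence of Hps3 and that of Sun2 matches sequence of Gm16575, so part of the counts of both is uncertain. Of 26 tested mRNA export genes, 8 fell and 1 rose at 24 h and 11 fell and 1 rose at 48 h. Rae1 and Gle1 stand both in this list and among the pore proteins with other names, so the counts overlap. Mcm3ap, which holds an mRNA export complex at the pore, changed by -1.004 ± 0.11 and -1.07 ± 0.11, and Alyref, an mRNA export adaptor, by -0.70 ± 0.09 and -0.59 ± 0.09. Of 9 tested SUMO genes, 4 fell and 0 rose at each time, with the activating enzyme subunits Sae1 at -0.91 ± 0.16 and -0.78 ± 0.16 and Uba2 at -0.33 ± 0.12 and -0.45 ± 0.13. The 24 h call of Uba2 was lost with DESeq2 (-0.34), upper quartile scaling (-0.29) and the deposited log2 values (-0.30), and without ON replicate 1 (-0.35), ON replicate 2 (-0.24), OFF24 replicate 2 (-0.36) or OFF24 replicate 3 (-0.27).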
